A study of Rattus norvegicus with 9 samples.

Results

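The miR-23, miR-24 and miR-27 miRNAs are made in 2 paralogous clusters of short hairpins, one holding miR-23a, miR-27a and miR-24-2 (the a cluster) and the other miR-23b, miR-27b and miR-24-1 (the b cluster). Their mature forms were taken by name from the table of rat miRNAs, and all 7 names were found among its 765 rows. They are miR-23a-3p, miR-27a-3p and miR-24-2-5p, which only the a cluster makes, miR-23b-3p, miR-27b-3p and miR-24-1-5p, which only the b cluster makes, and miR-24-3p, which both make. The libraries are 3 of allograft cornea, 3 of isograft cornea and 3 of normal cornea, all labelled as Wistar rats at 6 weeks of age, with no other treatment named. By the usual meaning of these words the donor of an allograft differs genetically from the recipient and that of an isograft does not, but the labels give neither donor strain nor time after surgery, and the allografts carry the same strain label as the rest. Each library is called by its group and the number its title carries, 12, 34 or 56. Whether a library is 1 cornea, 1 animal or a pool is not stated, so each p-value below speaks for the spread between these libraries, which may be technical.

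A mature miRNA is cut from one arm of a hairpin, 5p or 3p, and pairs with messenger RNAs through its seed, bases 2 to 8, so that miRNAs with one seed share most of their targets. The a cluster is a short transcription unit of its own, and the b cluster lies inside a protein-coding gene, so the levels of the paralogues can be set separately. In mice both clusters are known for promoting the growth of blood vessels and for restraining the differentiation and cytokine output of T cells, and miR-27 is known for repressing fat cell differentiation. A grafted cornea, which is normally free of vessels, can take up both vessels and leukocytes.

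The mature sequences are shown because the comparison of the clusters turns on how they differ; they are RefSeq's, from the assembly GRCr8, and all 7 were found there. The capitals mark the seed.
rno-miR-23a-3p: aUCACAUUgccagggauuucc
rno-miR-23b-3p: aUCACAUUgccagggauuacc
rno-miR-27a-3p: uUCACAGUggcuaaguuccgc
rno-miR-27b-3p: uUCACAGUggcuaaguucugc
rno-miR-24-2-5p: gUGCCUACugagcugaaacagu
rno-miR-24-1-5p: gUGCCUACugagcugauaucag
rno-miR-24-3p: uGGCUCAGuucagcaggaacag
Each pair of paralogues has 1 seed, shared in RefSeq's rat set by the 2 members of the pair alone, and the seed of miR-24-3p belongs to it alone. Counted from 1 at the 5′ end, miR-23a-3p and miR-23b-3p differ by U19A and miR-27a-3p and miR-27b-3p by C19U, the first base being that of the a cluster. The 5p arms of miR-24 share their first 16 bases and differ by A17U, C19U, A20C, G21A and U22G. A read that ends before base 19 therefore has no base that separates miR-23a from miR-23b or miR-27a from miR-27b. How such reads were assigned is not given in the sources used here, so the split between paralogues is uncertain to that extent.

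In GRCr8 the a cluster spans 389 bases on the minus strand of chromosome 19 (chr19:40859455-40859843), and none of its hairpins overlaps another annotated gene. The b cluster spans 814 bases on the minus strand of chromosome 17 (chr17:1818669-1819482). Its 3 hairpins lie within the bounds of Aopep, which encodes an aminopeptidase, and miR-24-1 also overlaps the bounds of Fancc and the hairpin Mir3074. The strand of these genes was not compared.

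The deposited values are RPM, reads of a miRNA scaled to a library total that also counts reads outside the listed miRNAs. Those totals, worked out from the steps in the values, were 11001459 to 12153889 reads. Listed miRNAs held 26.4% to 46.3% of them in allografts, 36.8% to 54.5% in isografts and 46.6% to 65.6% in normal corneas. Isograft 12 gave the lowest value of the 3 isografts for 91.1% of the 281 miRNAs abundant enough to test (at least 5 RPM in at least 3 libraries), and allograft 34 gave the lowest of the 3 allografts for 80.8%. Results below that rest on these libraries are given with and without them.

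miR-27b-3p was by far the most abundant of the 7. It stood at 8164, 6299 and 13012 RPM in allografts 12, 34 and 56, at 9165, 18808 and 18576 RPM in isografts 12, 34 and 56, and at 10394, 13829 and 12563 RPM in normal corneas 12, 34 and 56. It ranked between 5 and 9 among the 765 miRNAs in every library and made up 56.3% to 59.4% of the 7 miRNAs' RPM in allografts, 64.6% to 65.5% in isografts and 63.5% to 65.7% in normal corneas. Its share was thus lower in each allograft than in each of the other 6 libraries.

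miR-23a-3p, miR-24-3p, miR-23b-3p and miR-27a-3p formed a second tier. miR-23a-3p averaged 1801 RPM ± 630 in allografts, 2120 ± 697 in isografts and 1718 ± 154 in normal corneas (SD, n = 3 each). miR-24-3p averaged 1840 ± 603, 2271 ± 1147 and 1855 ± 253 RPM in the same order. miR-27a-3p averaged 1600 ± 676, 1453 ± 687 and 1535 ± 271 RPM. The ranges of these 3 overlapped in each group. Within each library, however, miR-27a-3p was below miR-23a-3p, at 0.480 to 0.977 reads per read. miR-24-3p was above miR-23a-3p in each library but isograft 12 (954 against 1384 RPM), in some by little, as in allograft 12 (1583 against 1580 RPM).

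The 5p arms of miR-24, the less used arms of their hairpins, were lower. miR-24-2-5p averaged 121 RPM ± 32.1 in allografts, 120 ± 49.9 in isografts and 89.3 ± 12.2 in normal corneas. miR-24-1-5p averaged 3.76 ± 1.28, 5.63 ± 2.71 and 4.69 ± 0.517 RPM in the same order, on 28 to 87 reads a library. The mature forms are 21 or 22 bases long, so length does not enter these comparisons of level.

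**Figure D1:**
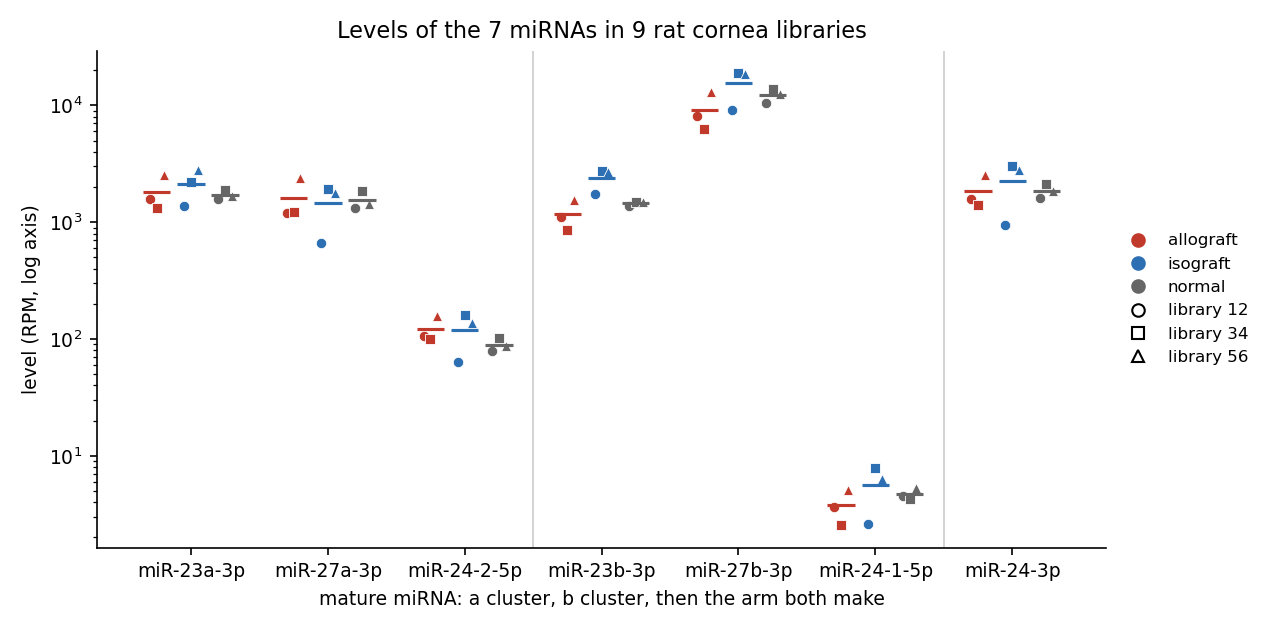
RPM (log axis) of the 7 miRNAs in each library, coloured by group, with circles, squares and triangles for libraries 12, 34 and 56 and a line at each group mean. Within the a cluster the groups overlap, miR-23b-3p is higher in all 3 isografts than in any other library, and isograft 12 is the lowest isograft for every miRNA shown.

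In RPM as deposited few of the 7 miRNAs separated the groups, and the number that passed depended on the scaling. Differences were tested with limma on log2(RPM + 1) over all 281 tested miRNAs, with Benjamini-Hochberg adjustment and a threshold of 0.05 for the adjusted p. All 7 passed the filter on low values. In allografts against normal corneas 0 of the 7 passed the test, and 0 had an unadjusted p under 0.05. Scaled to the sum of the listed miRNAs, 5 of the 6 that could be tested rose, beside 67.4% of all miRNAs passing. Over all miRNAs tested in RPM as deposited, 47.3% passed in that comparison, 23.1% higher (65 miRNAs) and 24.2% lower (68 miRNAs). An unadjusted p under 0.05 was found for 54.8%. The groups overlapped for all 7, while they did not for 60.1% of all miRNAs. The median log2 fold change of the 7 was -0.05, beside -0.14 over all miRNAs tested. edgeR on the recovered reads called miR-24-2-5p higher at 0.55 (adjusted p = 0.0132) and miR-27b-3p lower at -0.34 (adjusted p = 0.0410), beside 68.7% of all miRNAs. DESeq2 called the same 2, at 0.54 (adjusted p = 0.00534) and -0.35 (adjusted p = 0.0373), beside 69.4%. Over 23 alternatives the adjusted p ran from 0.000955 to 0.980 for miR-24-2-5p and from 0.0301 to 0.629 for miR-27b-3p, and each passed in 4 of them.

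In isografts against normal corneas 0 of the 7 passed in RPM as deposited and 0 had an unadjusted p under 0.05. Over all miRNAs 21.4% passed there, 16.7% higher (47 miRNAs) and 4.63% lower (13 miRNAs), and 28.5% had such an unadjusted p. Scaled to the sum of the listed miRNAs, 4 of 6 rose, beside 44.8% of all miRNAs passing. In RPM as deposited miR-23b-3p came nearest. It was at 1747, 2722 and 2695 RPM in isografts 12, 34 and 56 and at 1370, 1486 and 1492 RPM in the normal corneas, so the groups did not overlap, as they did not for 33.5% of all miRNAs. limma put the log2 fold change at 0.69 (SE 0.34, adjusted p = 0.179, n = 3 per group). It passed in 6 of 23 alternatives, whose adjusted p ran from 0.000184 to 0.510. Among these were edgeR at 0.60 (adjusted p = 0.00208, 40.6% of all miRNAs called), DESeq2 at 0.61 (adjusted p = 0.000590, 42.3% called) and the fit without isograft 12, at 0.90 (SE 0.34, adjusted p = 0.0312). The median log2 fold change of the 7 was 0.25, beside 0.05 over all miRNAs tested.

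In allografts against isografts 1 of the 7 passed, miR-23b-3p, which fell, while 34.5% of all miRNAs passed, 13.5% higher (38 miRNAs) and 21% lower (59 miRNAs). At an unadjusted p under 0.05 there were 2 of the 7, beside 44.5% of all miRNAs. miR-23b-3p was at 1102, 853 and 1545 RPM in allografts 12, 34 and 56 and at 1747, 2722 and 2695 RPM in the isografts. All 3 allografts were below all 3 isografts, and the 2 groups did not overlap, in either direction, for 38.8% of all miRNAs. The log2 fold change by limma was -1.05 (SE 0.34, adjusted p = 0.0186). edgeR gave -0.82 (adjusted p = 0.000314, 58% of all miRNAs called) and DESeq2 -0.84 (adjusted p = 8.9e-07, 60.9% called). The call was lost without allograft 12 (-1.03, adjusted p = 0.0751), allograft 34 (-0.84, adjusted p = 0.0883), isograft 34 (-0.94, adjusted p = 0.0731) or isograft 56 (-0.94, adjusted p = 0.0903), and in a fit of these 2 groups only (adjusted p = 0.0657), the lowest and highest adjusted p of 23 alternatives being 8.9e-07 and 0.0903.

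miR-27b-3p, of the same cluster, had a log2 fold change of -0.75 (SE 0.35, adjusted p = 0.0901) in allografts against isografts and did not pass. It passed in 7 of 23 alternatives, among them edgeR at -0.52 (adjusted p = 0.00710), DESeq2 at -0.54 (adjusted p = 0.00153) and the fit without isograft 12 at -1.10 (SE 0.35, adjusted p = 0.00540), and the 23 adjusted p-values ran from 0.00153 to 0.323. The remaining b-cluster form, miR-24-1-5p, stood at -0.42 (SE 0.36, adjusted p = 0.386), and without isograft 12 at -0.80 (SE 0.34, adjusted p = 0.0364). Its adjusted p ran from 0.0364 to 0.816 over the 20 alternatives that gave a value. Over the fits with 1 library left out, the log2 fold change ran from -1.10 to -0.52 for miR-27b-3p and from -0.80 to -0.16 for miR-24-1-5p. The a-cluster forms stood at -0.23 (SE 0.35) for miR-23a-3p, 0.21 (SE 0.39) for miR-27a-3p and 0.09 (SE 0.40) for miR-24-2-5p, and the shared miR-24-3p at -0.18 (SE 0.39). Of these 4, miR-27a-3p, miR-24-2-5p and miR-24-3p changed sign in at least one alternative that left a library out, and miR-23a-3p, miR-24-2-5p and miR-24-3p under another scaling. The median log2 fold change of the 7 was -0.23, beside -0.29 over all miRNAs tested.

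**Figure D2:**
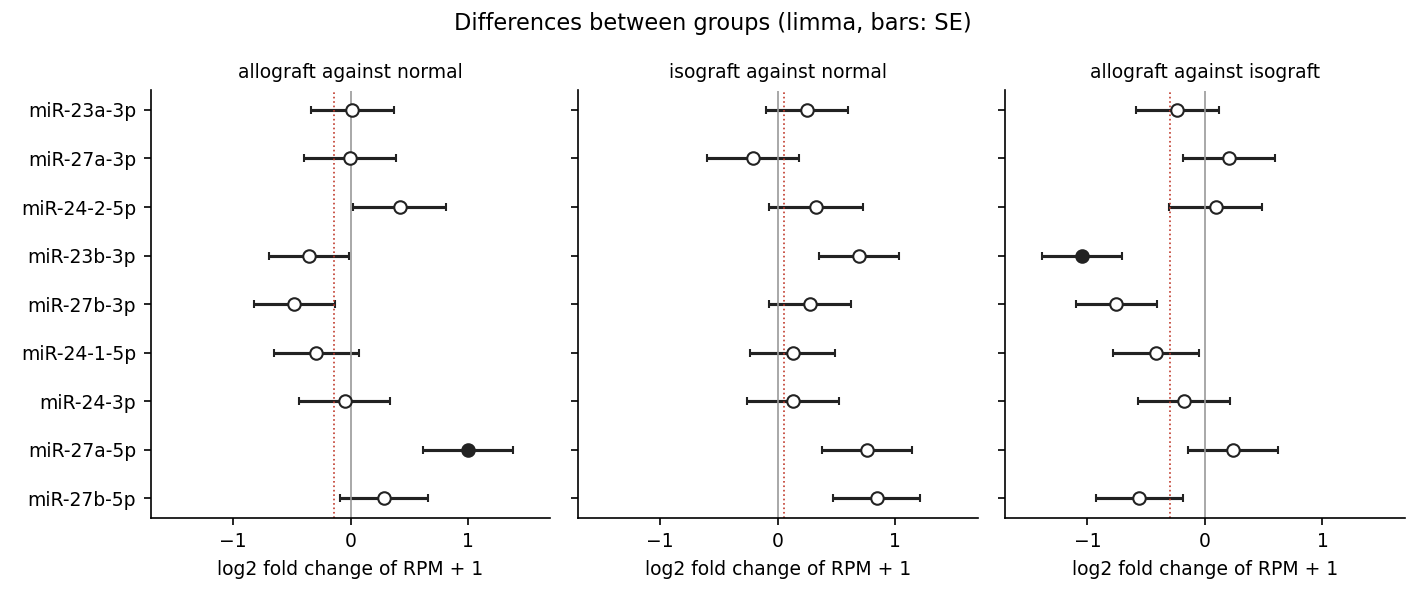
Log2 fold change of RPM + 1 (bars: SE) of the 7 miRNAs and of the 5p arms of miR-27a and miR-27b in the 3 comparisons, with filled points for an adjusted p of at most 0.05 and a dotted line at the median of all 281 miRNAs. Filled points are miR-27a-5p in allografts against normal corneas, at 1.00, and miR-23b-3p in allografts against isografts, at -1.05.

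What a change in RPM means for a single miRNA depends on the other reads in the library. Relative to the sum of the listed miRNAs, the 7 together made up 4.05%, 4.23% and 4.78% in allografts, 3.80%, 5.29% and 5.89% in isografts and 3.51%, 3.24% and 3.15% in normal corneas, so that each graft was above each normal cornea, as for 35.2% of the 281 miRNAs taken singly. In RPM the same sum was 13742, 11191 and 22142 in allografts, 13981, 28871 and 28767 in isografts and 16365, 21259 and 19115 in normal corneas, and both kinds of graft overlapped the normal corneas. Dividing each library by its listed sum put the median of all miRNAs (log2 fold change) at 0.58 in allografts against normal corneas, 0.34 in isografts against normal corneas and 0.10 in allografts against isografts, with 145 higher and 43 lower, 111 higher and 14 lower, and 89 higher and 56 lower. RPM recomputed without the abundant corneal epithelial miR-184 put it at -0.58, -0.23 and -0.44, with 51 higher and 111 lower, 38 higher and 29 lower, and 33 higher and 76 lower. Scaling by the median of ratios put it at -0.01, -0.05 and -0.07 and called 67 higher and 50 lower in isografts against normal corneas.

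With the sum of the listed miRNAs, 5 of the 6 miRNAs tested rose in allografts against normal corneas, beside 67.4% of all miRNAs passing. By limma these were miR-24-2-5p at 1.13 (adjusted p = 0.000955), miR-23a-3p at 0.74 (adjusted p = 0.00339), miR-27a-3p at 0.72 (adjusted p = 0.0329), miR-24-3p at 0.67 (adjusted p = 0.0473) and miR-23b-3p at 0.36 (adjusted p = 0.0330). In isografts against normal corneas 4 of 6 rose, beside 44.8% of all miRNAs, which were miR-23b-3p at 1.00 (adjusted p = 0.000184), miR-24-2-5p at 0.63 (adjusted p = 0.0360), miR-27b-3p at 0.58 (adjusted p = 0.0175) and miR-23a-3p at 0.56 (adjusted p = 0.0243). In allografts against isografts 1 of 6 passed, miR-23b-3p, which was lower (-0.63, adjusted p = 0.00278), beside 52% of all miRNAs. Of the 5 that rose in allografts, miR-23b-3p alone rose by less than the median of all miRNAs, 0.58.

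With the median of ratios, miR-24-2-5p rose and miR-27b-3p fell in allografts against normal corneas (69.6% of all miRNAs passed), miR-23b-3p rose in isografts against normal corneas (41.8%), and miR-23b-3p and miR-27b-3p fell in allografts against isografts (60.4%). In RPM without miR-184, miR-27b-3p fell in allografts against normal corneas (55.5%), 0 of 7 passed in isografts against normal corneas, also without adjustment (22.9%), and miR-23b-3p and miR-27b-3p fell in allografts against isografts (37.3%).

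A scaling shifts all miRNAs of a library alike, so a difference taken less the median of all miRNAs is nearly the same under each of them by arithmetic, and its narrow range is no sign of stability. Over the 4 scalings the log2 fold change of miR-23b-3p less that median was -0.76 to -0.74 in allografts against isografts, 0.64 to 0.66 in isografts against normal corneas and -0.22 to -0.21 in allografts against normal corneas. For miR-27b-3p it was -0.47 to -0.44, 0.22 to 0.24 and -0.34 to -0.33 in the same 3 comparisons. For miR-27a-3p it was 0.49 to 0.52, -0.27 to -0.25 and 0.13 to 0.14, opposite in sign to miR-27b-3p in each. For miR-23a-3p it was 0.05 to 0.08, 0.19 to 0.21 and 0.15 to 0.16. Before the median was taken off, RPM as deposited gave miR-27a-3p and miR-27b-3p the same sign in allografts against normal corneas. The log2 fold changes there were -0.0030 (SE 0.39, limma) for miR-27a-3p and -0.48 (SE 0.35) for miR-27b-3p.

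**Figure D3:**
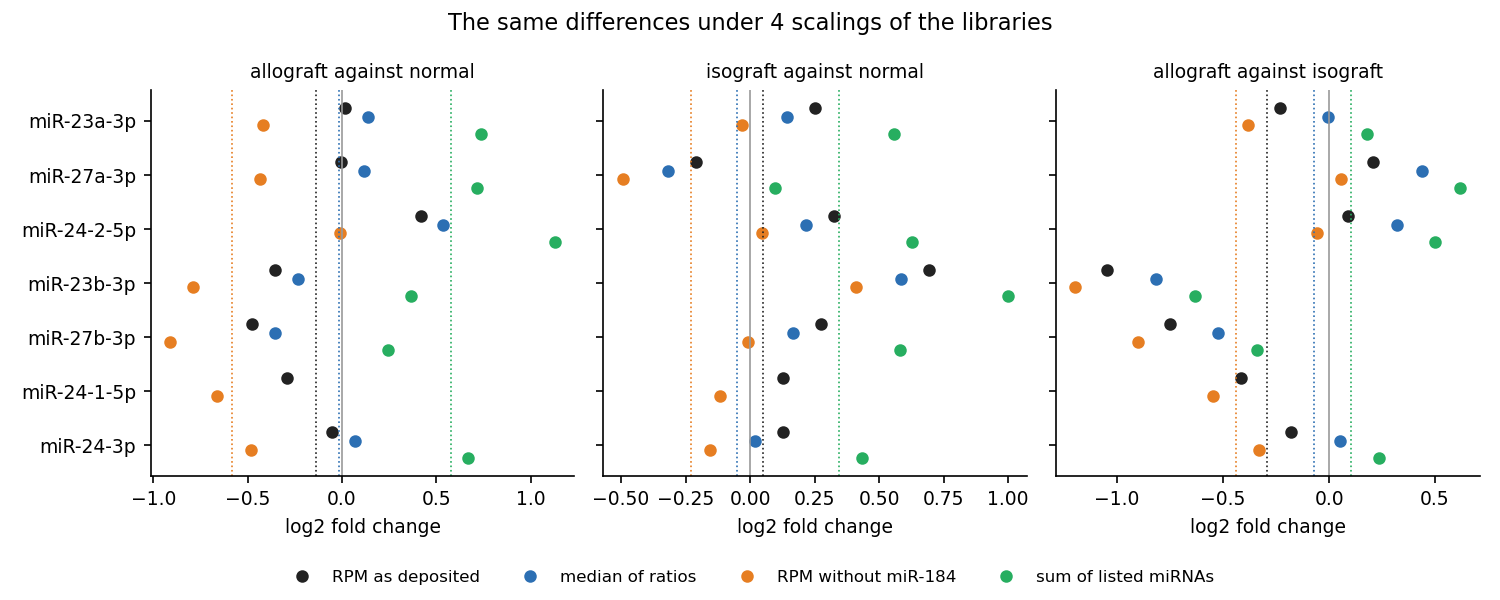
Log2 fold changes of the 7 miRNAs under 4 scalings (coloured points), with a dotted line in the same colour at the median of all miRNAs. The points move with their line by construction, miR-23b-3p and miR-27b-3p lie left of it in both comparisons of allografts, and miR-24-1-5p lacks points where scaling put it under the filter on low values.

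The clusters were also contrasted within libraries. The RPM of an a-cluster form divided by that of its b-cluster paralogue does not depend on the library total. The 3 ratios of this kind were tested over the 3 groups, together with 3 ratios between other members described further on. The exact permutation test asked for any difference among the groups, not for an order (one-way F statistic, 1680 arrangements, Benjamini-Hochberg adjustment over the 6). The ratio of miR-23a-3p to miR-23b-3p was 1.43, 1.54 and 1.63 in allografts 12, 34 and 56, 0.792, 0.810 and 1.03 in isografts 12, 34 and 56, and 1.15, 1.27 and 1.13 in normal corneas 12, 34 and 56. The 3 groups did not overlap, with allografts highest and isografts lowest. The group means were 1.53 ± 0.0966, 0.877 ± 0.131 and 1.18 ± 0.0738 (SD, n = 3 each; exact permutation p = 0.00357, the smallest this design can give, adjusted p = 0.0107).

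miR-27a-3p and miR-27b-3p gave the same order. miR-27a-3p was the minor form, at 0.147, 0.193 and 0.183 reads per read of miR-27b-3p in allografts, 0.0726, 0.102 and 0.0952 in isografts and 0.128, 0.133 and 0.114 in normal corneas. Again the 3 groups did not overlap (exact permutation p = 0.00357, adjusted p = 0.0107, n = 3 each). The means were 0.174 ± 0.0239, 0.0900 ± 0.0155 and 0.125 ± 0.0101. In geometric mean the a to b ratio was 1.95-fold higher in allografts than in isografts for miR-27 and 1.76-fold higher for miR-23. Taken singly, 60.1% of all miRNAs did not overlap between allografts and normal corneas, 33.5% between isografts and normal corneas, and 38.8% between the grafts. How often ratios of other miRNA pairs separate all 3 groups was not counted, so the separation is not shown to be particular to these clusters.

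**Figure D4:**
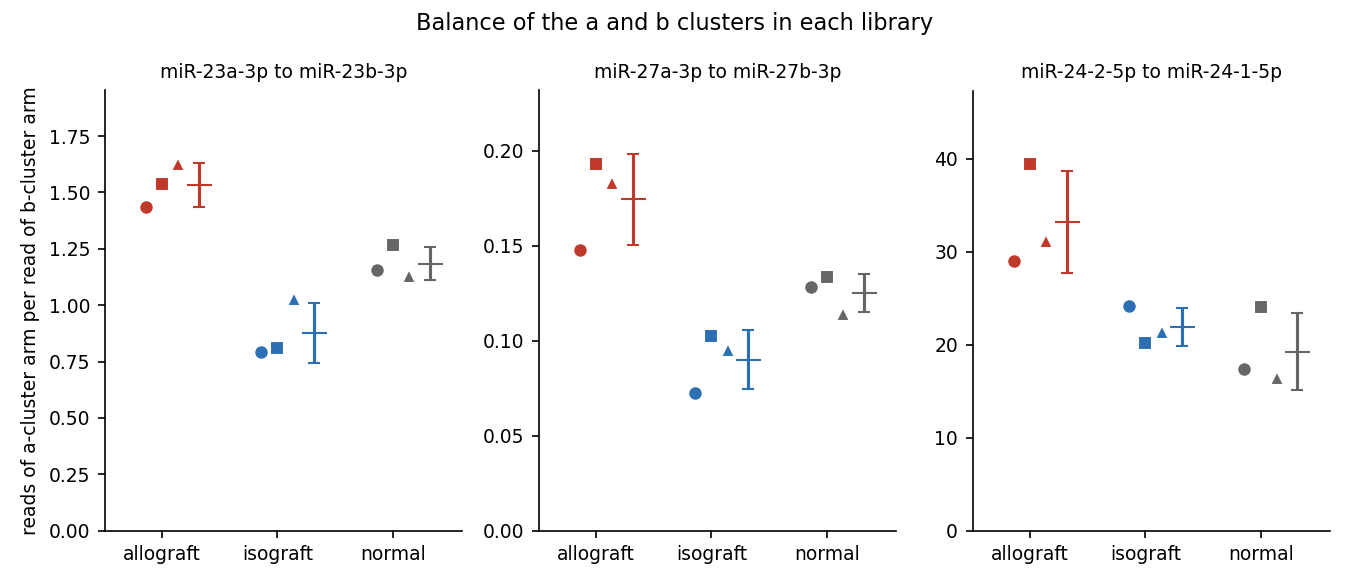
Reads of each a-cluster form per read of its b-cluster paralogue in the 9 libraries (circles, squares and triangles for libraries 12, 34 and 56), with the mean and SD of each group beside the points. For miR-23 and miR-27 the allografts lie above, and the isografts below, every normal cornea, and for the 5p arms of miR-24 the allografts lie above all other libraries.

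The 5p arms of miR-24, which differ in more bases than the other pairs, were compared in the same way. They are the less used arms of their hairpins, so their ratio may also move with arm use, which was not tested for miR-24. miR-24-2-5p exceeded miR-24-1-5p 29.0-, 39.5- and 31.1-fold in allografts, 24.2-, 20.2- and 21.4-fold in isografts and 17.4-, 24.0- and 16.4-fold in normal corneas. Each allograft was above each of the other 6 libraries, while isografts and normal corneas overlapped (exact permutation p = 0.0107, adjusted p = 0.0214, n = 3 each). This result rests on few reads of miR-24-1-5p. Its adjusted p was 0.0696 without allograft 34 and 0.0571 without normal 56.

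Pair by pair, the log2 ratio of allografts less that of normal corneas was 0.37 (SE 0.07) for miR-23, 0.47 (SE 0.14) for miR-27 and 0.79 (SE 0.22) for the 5p arms of miR-24. For isografts less normal corneas it was -0.44 (SE 0.13), -0.49 (SE 0.17) and 0.20 (SE 0.19), so the 5p arms of miR-24 did not share the lower value of the other pairs in isografts. For allografts less isografts it was 0.81 (SE 0.13), 0.96 (SE 0.19) and 0.59 (SE 0.16). With 3 libraries against 3 the exact test cannot go below 0.1, which 8 of these 9 differences reached (adjusted p = 0.15 over 18 pair tests), and isografts against normal corneas for the 5p arms of miR-24 gave p = 0.3 (adjusted p = 0.338). Without isograft 12 and allograft 34, the miR-23 and miR-27 ratios still differed over the groups, with an exact permutation adjusted p of 0.0190 for both, and that of the 5p arms of miR-24 did not pass (adjusted p = 0.114).

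Mates of one cluster are cut from one transcript, and their ratios were compared as well. miR-27b-3p exceeded miR-23b-3p 7.74-fold ± 0.595 in allografts, 6.35-fold ± 0.956 in isografts and 8.44-fold ± 0.860 in normal corneas (exact permutation p = 0.025, adjusted p = 0.0375, n = 3 each). The isografts lay below all other libraries, at 5.24 in isograft 12 and at 6.91 and 6.89 in the others, and without isograft 12 the adjusted p was 0.146. It also missed the threshold without allograft 12 (adjusted p = 0.0804), without allograft 34 (0.0696) and without normal 34 or normal 56 (0.0729 each). miR-27a-3p stood at 0.879 ± 0.102, 0.664 ± 0.198 and 0.889 ± 0.0767 reads per read of miR-23a-3p (exact permutation p = 0.139, adjusted p = 0.139), with isografts from 0.480 to 0.873 overlapping the other groups. Without isograft 34 that adjusted p was 0.0321.

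miR-24-3p, which both clusters make, was set against the sum of miR-27a-3p and miR-27b-3p. It stood at 0.169, 0.187 and 0.164 in allografts, 0.0970, 0.147 and 0.138 in isografts and 0.137, 0.135 and 0.132 in normal corneas. Each allograft was above each other library, and isograft 12 was the lowest of all (exact permutation p = 0.0357, adjusted p = 0.0429). Leaving out allograft 12, 34 or 56 or normal 12, 34 or 56 put the adjusted p at 0.0729 to 0.176.

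The other arms of the miR-23 and miR-27 hairpins were read too. Of 4 such arms 2 were abundant enough to test. miR-27a-5p was at 135, 152 and 168 RPM in allografts 12, 34 and 56, at 94.3, 114 and 193 RPM in isografts and at 56.3, 79.5 and 94.3 RPM in normal corneas. All 3 allografts were above all normal corneas, and these groups did not overlap, in either direction, for 60.1% of all miRNAs. miR-27a-5p rose in allografts against normal corneas, with a log2 fold change of 1.00 (SE 0.38, limma, adjusted p = 0.0322, 23.1% of all miRNAs higher). That call was lost without allograft 12 (1.08, adjusted p = 0.0729), allograft 34 (1.00, adjusted p = 0.0692), allograft 56 (0.92, adjusted p = 0.0633), normal 12 (0.80, adjusted p = 0.164) or normal 34 (1.04, adjusted p = 0.0727), and in RPM without miR-184 (0.57, adjusted p = 0.258); the lowest of 23 alternatives was 2.5e-05. In isografts, of which isograft 12 was level with normal 56, it had 0.76 (SE 0.38, limma, adjusted p = 0.190) and passed in 4 of 23 alternatives, DESeq2 among them at 0.70 (adjusted p = 0.0195; 23 alternatives, 0.00829 to 0.633). miR-27b-5p was at 12.4, 9.90 and 14.2 RPM in allografts, 13.7, 24.5 and 17.8 RPM in isografts and 9.08, 10.4 and 9.63 RPM in normal corneas, and in isografts against normal corneas had 0.84 (SE 0.37, limma, adjusted p = 0.130). Those groups did not overlap, as for 33.5% of all miRNAs. It passed in 6 of 22 alternatives, among them edgeR at 0.81 (adjusted p = 0.00372) and DESeq2 at 0.82 (adjusted p = 0.00147), whose adjusted p ran from 0.000826 to 0.387. In allografts against normal corneas it had 0.28 (SE 0.37, limma, adjusted p = 0.557) and passed in 2 of 22, by edgeR at 0.45 (adjusted p = 0.0426) and with the sum of the listed miRNAs at 0.94 (adjusted p = 0.00121). miR-23b-5p at 1.18 to 4.36 RPM and miR-23a-5p at 0.272 to 1.00 RPM were too low to test.

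The use of the arms differed between the miR-27a and miR-27b hairpins. The 5p arm made up 10.1%, 11.1% and 6.59% of the miR-27a hairpin's reads in allografts, 12.4%, 5.59% and 9.84% in isografts and 4.06%, 4.14% and 6.19% in normal corneas. Each allograft was above each normal cornea, while isograft 34 fell below normal 56. The 95% exact binomial interval was widest in isograft 12, at 11.8% to 13.1%, and covers counting error only. In the miR-27b hairpin the 5p arm made up 0.151%, 0.157% and 0.109% in allografts, 0.150%, 0.130% and 0.0958% in isografts and 0.0873%, 0.0755% and 0.0766% in normal corneas, so each graft was above each normal cornea. The 5p arm of the miR-23a hairpin averaged 0.0301% in allografts, 0.0428% in isografts and 0.0335% in normal corneas. That of miR-23b averaged 0.130%, 0.145% and 0.183%, so for miR-23 the b cluster had the higher share. For miR-23b each allograft, at 0.156%, 0.138% and 0.0940%, was below each normal cornea, at 0.159%, 0.195% and 0.194%. Both miR-23 shares rest on few 5p reads. All these shares were looked at after the values were known and carry no test.

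**Figure D5:**
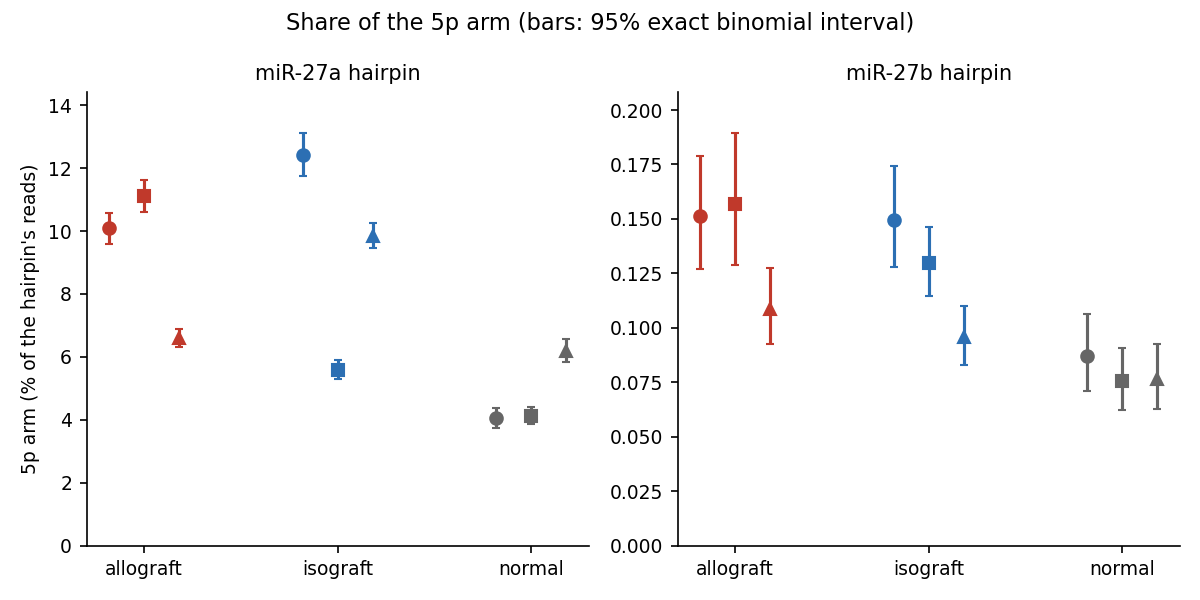
Share of the 5p arm among all reads of the miR-27a and miR-27b hairpins in each library (circles, squares and triangles for libraries 12, 34 and 56; bars, 95% exact binomial interval). All grafts but isograft 34 lie above the normal corneas for miR-27a, at 6.59% or more, and all grafts do so for miR-27b, at 0.0958% or more.

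The levels of the paralogues followed each other only in part over the 9 libraries, which share depth and library composition. On log2(RPM + 1), Pearson's r was 0.73 between miR-23a-3p and miR-23b-3p, 0.64 between miR-27a-3p and miR-27b-3p. Across the clusters it was 0.31 between miR-27a-3p and miR-23b-3p but 0.86 between miR-23a-3p and miR-27b-3p, above the value for the a-cluster mates. It was 0.90 between the b-cluster mates miR-23b-3p and miR-27b-3p, 0.79 between the a-cluster mates miR-23a-3p and miR-27a-3p, and 0.92 between miR-24-3p and miR-27a-3p against 0.82 between miR-24-3p and miR-27b-3p. Outside the clusters the nearest patterns among the miRNAs tested were miR-9a-5p (r = 0.99) and miR-181d-5p (0.94) for miR-27b-3p, and miR-708-3p (0.98) and miR-100-5p (0.96) for miR-23b-3p. For miR-27a-3p they were miR-29a-3p (0.99) and miR-93-5p (0.98), for miR-24-3p miR-22-3p (0.97) and miR-497-5p (0.97), and for miR-23a-3p miR-101a-3p (0.92) and miR-324-3p (0.92). These are descriptions over 9 libraries in 3 groups and carry no test.

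The makeup of the tissue moved with the groups in which these ratios differed. In bulk tissue, fewer cells of a type and less RNA per cell cannot be told apart. The counts below stand beside these shares of all miRNAs tested. In allografts against normal corneas 23.1% were higher and 24.2% lower. In isografts against normal corneas the shares were 16.7% and 4.63%, and in allografts against isografts 13.5% and 21%. The 5 leukocyte miRNAs (miR-142-3p, miR-142-5p, miR-223-3p, miR-150-5p and miR-155-5p) summed to 2293 to 3997 RPM in allografts, 156 to 327 in isografts and 46.0 to 56.7 in normal corneas, and all 5 rose in each comparison. The 2 arms of the endothelial miR-126a summed with miR-126b, listed at 0 throughout, to 2955 to 4874, 2095 to 6150 and 346 to 857 RPM, and both arms rose in either graft against normal corneas. Between the grafts 0 of 2 passed, also without adjustment. The 8 corneal epithelial miRNAs, miR-184 first, were present in all libraries and summed to 37254 to 90969 RPM in allografts, 159213 to 193990 in isografts and 271148 to 420587 in normal corneas. Of them 7 fell in allografts and 4 in isografts against normal corneas, and 3 fell in allografts against isografts. The 5 stromal and smooth muscle miRNAs summed to 10249 to 20138, 15300 to 33580 and 8070 to 9911 RPM, with 3 higher in allografts and 4 in isografts against normal corneas and 2 lower in allografts than in isografts. Thus the stromal sum was highest in an isograft and the leukocyte sum in an allograft, and the part of either in the a to b ratios was not tested. The red cell miRNAs miR-451-5p, miR-144-3p and miR-486 summed to 17.5 to 1067, 13.6 to 181 and 82.3 to 343 RPM, highest in allograft 34, and 1 of the 2 tested was lower in either graft against normal corneas.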

How the data were processed

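Small RNA of 9 rat cornea samples was sequenced. Per the labels' protocols, Trizol was used for extraction, and TruSeq small RNA libraries (Illumina) took 1 ug of RNA each. The deposited table gives RPM computed by the authors for 765 mature miRNAs, and each of its columns matched 1 library by title, with 0 left over. The submitters' processing notes name bcl2fastq, BWA and rn6; their versions, the trimming and the treatment of reads matching several miRNAs are not stated there. RPM moved in fixed steps, and 100% of values gave whole reads within 0.1 read. A count of 3 reads was 0.247 to 0.273 RPM.

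The filter (5 RPM in 3 or more libraries) left 281 miRNAs. log2(RPM + 1) of all 9 libraries was fitted with limma 3.58.1 in R 4.3.3 (trend, 6 residual degrees of freedom, Benjamini-Hochberg adjustment over the 281). edgeR 4.0.16 and DESeq2 1.42.0 were run on the recovered reads as alternatives. Ratios were tested by exact permutation, with no pseudocount. All 7 miRNAs are named, with the other arms and, for likeness, the 2 miRNAs of highest Pearson r. The fit and the permutation test were tested on simulated data. The miRNAs, lists and tests were chosen with earlier results of these data known. Sequences and neighbouring genes came from RefSeq tables of GRCr8.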

Additional observations from a re-analysis of the deposited data

How the results depend on the processing

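The a to b ratios of miR-23 and miR-27 passed their exact permutation test under every library left out in turn (adjusted p 0.0107 to 0.0321 for each). The ranges were 0.0214 to 0.0696 for the 5p arms of miR-24, 0.0214 to 0.146 for miR-27b-3p to miR-23b-3p, 0.0107 to 0.176 for miR-24-3p to miR-27 and 0.0321 to 0.400 for miR-27a-3p to miR-23a-3p. Without isograft 12 and allograft 34, a choice made after seeing the data, the 5p arms of miR-24 gave an adjusted p of 0.114 and miR-27b-3p to miR-23b-3p 0.183. Same-numbered libraries deviated from their group means with r from -0.51 to 0.56, the highest being allograft 56 with isograft 56. Such deviations follow shifts of whole libraries, with 3 libraries a group, so they cannot decide whether the title numbers pair the libraries. With the replicate number as a block, where the smallest permutation p is 0.0278, the adjusted p was 0.0833 for the ratios of miR-23, miR-27, the 5p arms of miR-24 and miR-27b-3p to miR-23b-3p, and 0.111 for miR-24-3p to miR-27. The block gave 143, 66 and 112 miRNAs called.

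In the order allograft against normal, isograft against normal and allograft against isograft, counts of miRNAs called were 133, 60 and 97, and 63, 30 and 44 with a filter at 50 RPM, which left fewer miRNAs. Leaving out 1 library gave 96 to 162, 40 to 79 and 42 to 146, the last being 52 without allograft 12, 42 without allograft 34 and 146 without isograft 12. For isografts against normal corneas and allografts against isografts the counts were 117 and 169 with the median of ratios, 114 and 163 with edgeR, and 119 and 171 with DESeq2, and for isografts against normal corneas 125 with the sum of listed miRNAs. There edgeR gave 67 higher and 47 lower. The causes were not tested.

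These log2 fold changes turned sign, none of them past the threshold in RPM as deposited. In allografts against normal corneas, RPM without miR-184 gave -0.42 for miR-23a-3p, -0.013 for miR-24-2-5p and -0.12 for miR-27b-5p. The sum of listed miRNAs gave 0.36 for miR-23b-3p, 0.67 for miR-24-3p, 0.72 for miR-27a-3p and 0.24 for miR-27b-3p, the first 3 of these past the threshold. miR-24-3p and miR-27a-3p were at 0.070 and 0.12 by the median of ratios, at 0.071 and 0.12 by DESeq2, at 0.082 and 0.13 by edgeR, and at 0.12 and 0.16 without isograft 12 and allograft 34. With 1 library left out the ranges were -0.25 to 0.22 for miR-23a-3p, -0.30 to 0.12 for miR-24-3p and -0.33 to 0.16 for miR-27a-3p.

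In isografts against normal corneas, RPM without miR-184 gave -0.033 for miR-23a-3p, -0.16 for miR-24-3p, -0.12 for miR-24-1-5p and -0.0078 for miR-27b-3p, and miR-27a-3p was at 0.10 by the sum of listed miRNAs and at 0.28 without isograft 12 and allograft 34. With 1 library left out the ranges were -0.17 to 0.67 for miR-24-3p, -0.13 to 0.51 for miR-24-1-5p and -0.49 to 0.28 for miR-27a-3p. In allografts against isografts, the sum of listed miRNAs gave 0.18 for miR-23a-3p and 0.23 for miR-24-3p, which was at 0.050 by the median of ratios and 0.0075 by edgeR. miR-24-2-5p was at -0.058 without miR-184 and at -0.19 without isograft 12 and allograft 34, where miR-27a-3p was at -0.12. With 1 library left out the ranges were -0.72 to 0.12 for miR-24-3p, -0.31 to 0.35 for miR-24-2-5p and -0.28 to 0.48 for miR-27a-3p. miR-24-1-5p gave no value with the filter at 50 RPM, the median of ratios or the sum of listed miRNAs. With 3 libraries a group, few reads of miR-24-1-5p and an unknown rule for reads shared by paralogues, small differences between paralogues are not resolved.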
